A study of Mus musculus with 2 samples.

Results

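Open chromatin was examined at 10 genes that direct or mark amacrine and horizontal cell fates in the mouse retina: Ptf1a, Foxn4, Onecut1, Onecut2, Prox1, Tfap2a, Tfap2b, Lhx1, Gad1 and Gad2. A peak was assigned to a gene when its summit lay inside the gene body or within 50 kb of either end on the mm10 annotation. This gave 133 of the 117165 control peaks and 141 of the 124935 Ngn3-OE peaks, or 163 of 150435 distinct regions when control peaks were joined with the Ngn3-OE peaks that had no control counterpart. The peaks came from ATAC-seq, in which the Tn5 transposase cuts DNA that is not wrapped in nucleosomes. The control and Ngn3-OE groups each consisted of 1 library of 50000 sorted, GFP-positive late RPCs (retinal progenitor cells that still divide around birth). Plasmids were electroporated into the retina in vivo at postnatal day 1, a control plasmid in one group and a Neurog3 overexpression plasmid in the other, and cells were sorted at day 2 after electroporation (DAE 2). In the staining of the study at DAE 2, only part of the electroporated cells still proliferated, and a smaller part in Ngn3-OE than in control. The sources used here give neither the mouse strain nor the number of pups behind each sort.

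Amacrine cells and horizontal cells are the inhibitory interneurons of the retina. Foxn4 acts early in progenitors and lies upstream of Ptf1a, a basic helix-loop-helix factor that both cell types need. Horizontal cells further depend on Onecut1, Onecut2, Prox1 and Lhx1, AP-2 factors such as Tfap2a and Tfap2b act downstream of Ptf1a, and the glutamate decarboxylases Gad1 and Gad2 make the transmitter GABA. Horizontal cells are born before birth, and amacrine cells are born into the first postnatal days.

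A test of overexpression needs replicate libraries, and each group had 1, so no p-value is given and intervals cover counting error only, without allowance for dependence between neighbouring peaks. The tag pileup at each summit was recovered from the deposited fold enrichment and −log10 p, and the median was 9 tags in both lists. Values are not normalised between libraries, so peaks were also compared by rank percentile: peaks of each library were ordered by −log10 q, and the lowest was set to 0 and the highest to 100. The strongest peak of a set is the one with the highest −log10 q. The labelled cell type was checked at start sites of marker genes: a peak was present within 1 kb at 8 of 8 progenitor genes and 3 of 3 photoreceptor precursor genes in both libraries, and at 1 of 3 genes for microglia, 1 of 3 for endothelium, 1 of 3 for pigment epithelium and 1 of 5 for other tissues. The pigment epithelium gene with a peak was Mitf, at 128 tags in control and 140 in Ngn3-OE. No control peak and 1 Ngn3-OE peak of 1591 tags lay within 10 kb of Neurog3. The lists do not tell tags of the electroporated Neurog3 plasmid from tags of the genomic gene.

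The sequences below are the mm10 plus strand over 201 bases centred on a summit, and capitals mark matches to the motifs searched. The first 4 are all the regions at the 10 genes that hold the Neurogenin-type E-box consensus of the study, a 10-letter motif. The Foxn4 window at chr5:114264308-114264508 lies in an intron, the Prox1 window at chr1:190155162-190155362 lies in an intron, and the Tfap2a window at chr13:40784525-40784725 and the Gad2 window at chr2:22705419-22705619 are intergenic. The E-box is in plus-strand orientation in the first pair and in minus-strand orientation in the second.
Foxn4 intron, 9.4 kb into the gene: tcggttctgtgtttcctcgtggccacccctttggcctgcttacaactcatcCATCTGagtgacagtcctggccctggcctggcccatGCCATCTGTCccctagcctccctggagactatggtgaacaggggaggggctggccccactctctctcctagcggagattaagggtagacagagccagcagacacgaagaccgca
Prox1 intron, 15.5 kb into the gene: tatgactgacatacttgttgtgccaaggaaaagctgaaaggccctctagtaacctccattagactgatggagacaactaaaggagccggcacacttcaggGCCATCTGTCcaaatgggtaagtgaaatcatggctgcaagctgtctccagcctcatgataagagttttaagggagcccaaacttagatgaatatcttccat
Tfap2a upstream, 46.2 kb: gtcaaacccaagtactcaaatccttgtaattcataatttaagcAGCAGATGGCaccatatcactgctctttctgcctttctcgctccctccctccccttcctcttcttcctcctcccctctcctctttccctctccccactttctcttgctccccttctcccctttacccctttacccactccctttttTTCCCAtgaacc
Gad2 downstream, 83.3 kb from the start: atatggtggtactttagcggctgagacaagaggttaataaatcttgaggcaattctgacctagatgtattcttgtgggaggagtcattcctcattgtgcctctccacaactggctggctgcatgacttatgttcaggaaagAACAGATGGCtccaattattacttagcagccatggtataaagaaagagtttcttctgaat

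These 4 regions did not move together. The Foxn4 region had 57 tags in control and 74 in Ngn3-OE, the Tfap2a region 3 and 9 tags, the Prox1 region was called in Ngn3-OE alone with 5 tags, and the Gad2 region was called in control alone with 4 tags. The E-box centre lay 8.5 bp before the summit at Foxn4 and 4.5 bp after it at Prox1. In the Tfap2a window the second capital run is an RBPJ-type match, and in the Foxn4 window the first is a further E-box core.

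The other 3 windows are those of the strongest distal peak of Lhx1, at chr11:84540080-84540280, and of the largest rank falls at Gad2, at chr2:22620084-22620284, and at Foxn4, at chr5:114284958-114285158. The Lhx1 window holds matches to the OTX/CRX-type, SOX-type and E-box core motifs in that order, the Gad2 window holds a SOX-type and an RBPJ-type match, and the Foxn4 window holds none of the motifs.
Lhx1 upstream, 14.6 kb: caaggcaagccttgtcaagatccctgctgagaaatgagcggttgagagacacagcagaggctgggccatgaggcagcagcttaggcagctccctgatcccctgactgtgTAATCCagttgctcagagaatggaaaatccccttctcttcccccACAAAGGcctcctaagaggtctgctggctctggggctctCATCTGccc
Gad2 upstream, 2.02 kb: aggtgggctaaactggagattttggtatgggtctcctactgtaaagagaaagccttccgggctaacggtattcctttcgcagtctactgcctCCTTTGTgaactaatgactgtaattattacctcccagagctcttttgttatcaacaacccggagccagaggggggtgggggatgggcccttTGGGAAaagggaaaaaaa
Foxn4 upstream, 11.3 kb: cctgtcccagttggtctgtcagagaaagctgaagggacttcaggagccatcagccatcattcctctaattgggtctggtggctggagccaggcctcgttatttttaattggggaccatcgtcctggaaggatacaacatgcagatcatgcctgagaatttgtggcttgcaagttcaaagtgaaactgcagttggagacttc

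Chromatin at the 10 genes was open in both libraries. Each gene had at least 1 peak within 1 kb of an own start site in control and in Ngn3-OE, and peaks lay more densely around these genes than over the assembled chromosomes, at 9.88 against 4.43 per 100 kb in control and 10.5 against 4.72 in Ngn3-OE. The chromosome values include DNA far from any gene, so they do not set these 10 genes apart from other genes. Most peaks were common to the libraries: 25 of the 133 control peaks, or 18.8% (95% Wilson interval 13.1 to 26.3), had no Ngn3-OE counterpart, where 21.7% of all control peaks had none. In the other direction 30 of the 141 Ngn3-OE peaks, or 21.3% (15.3 to 28.8), had no control counterpart, against 26.6% over the whole list. Both shares were near the background.

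The peaks called in a single library were weak. Those of control had 3 to 14 tags and those of Ngn3-OE 3 to 16, with a median of 6 in each. Among peaks with a −log10 q of at least 5, 3 of 87 control peaks, or 3.45% (1.18 to 9.65), lacked an Ngn3-OE counterpart, against 7.89% of all such control peaks. The corresponding count was 10 of 88 for Ngn3-OE, or 11.4% (6.29 to 19.7), against 10.3%. Many lay beside a peak of the other library: 14 of 25 control-only peaks and 12 of 30 Ngn3-OE-only peaks were within 1 kb of one, or 56% (37.1 to 73.3) and 40% (24.6 to 57.7), where the shares over all such peaks were 34.9% and 32.9%.

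**Figure D1:**
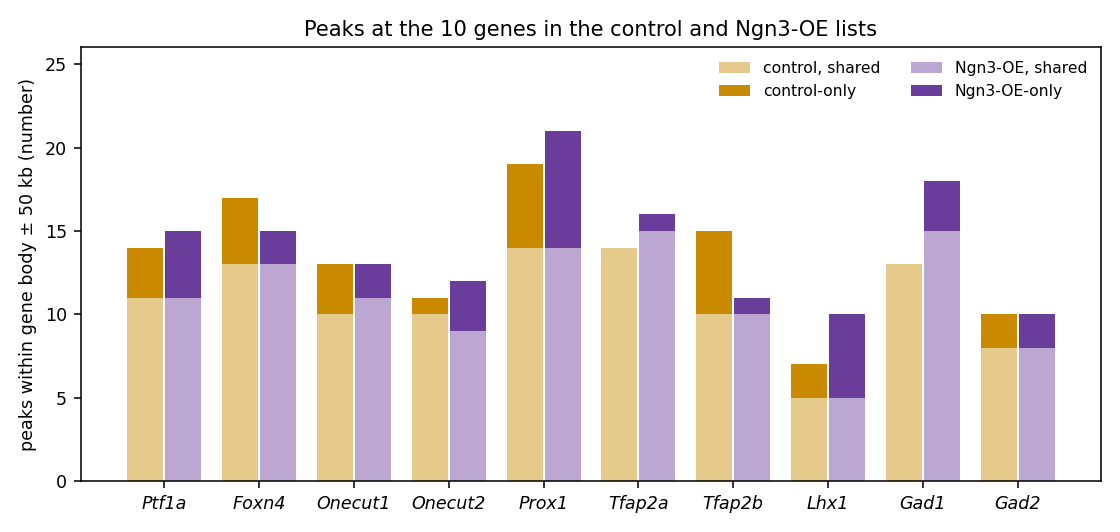
Number of peaks (vertical axis) at each gene in the control and Ngn3-OE lists, with shared peaks in the light and one-library peaks in the dark part of each bar. Tfap2b had 5 control-only peaks and 1 Ngn3-OE-only peak, Lhx1 had 2 and 5, and every gene had more shared than one-library peaks except Lhx1 in Ngn3-OE, with 5 of each.

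Shared peaks at the 10 genes lost rank in Ngn3-OE more often than shared peaks did over the genome. Of the 108 control peaks with an Ngn3-OE counterpart, 23 fell by 20 rank percentiles or more, or 21.3% (14.6 to 29.9), against 10.5% of all 91741 shared peaks. A rise of this size was seen at 17, or 15.7% (10.1 to 23.8), against 16.0%, a share near the background. The peaks that fell went from a median of 13 tags in control to 6 in Ngn3-OE, and those that rose from 7 to 13. Marker genes also differed between the libraries in the tags of their strongest start-site peak, taken in each list separately: all 3 photoreceptor precursor genes had more tags in Ngn3-OE (summed tags 147 in control and 207 in Ngn3-OE; Otx2 16 and 26, Crx 88 and 118, Nrl 43 and 63), and 6 of 8 progenitor genes had fewer (summed 435 and 399). The summed tags were 8 and 7 for microglia, 6 and 10 for endothelium, 128 and 140 for pigment epithelium and 4 and 9 for other tissues. The part of these differences in the falls at the 10 genes was not tested.

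The excess of falls was present at promoters, here any summit within 3 kb of a start site of any gene, where 11 of 43 shared peaks fell, or 25.6% (14.9 to 40.2), against 6.80% of all shared promoter peaks. These falls included peaks at starts of the neighbouring genes Gm9979, Aatf and Myo1h. The promoter comparison was not matched for strength: median tags were 10 in promoter regions at the 10 genes and 13 in all promoter regions. Away from promoters 12 of 65 fell, or 18.5% (10.9 to 29.6), against 12.4%, and here the interval included the background. The share of falls was also above that of all shared peaks in each band of control rank, at 19.1% against 8.26% below rank 50, 29.4% against 17.8% from 50 to 75, and 14.8% against 6.37% above 75, although the interval excluded the background only in the first of these. Leaving out any 1 of the 10 genes gave 19.0% to 23.5%. When only peaks with a −log10 q of at least 5 in both lists were used, the falls numbered 11 of 66, or 16.7% (9.57 to 27.4), against 10.3% of all such peaks, and this interval too included the background. Rises then outnumbered falls, at 14 of 66, or 21.2%, against 15.4% of all such peaks.

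No single peak was separated by its counts. Exact Poisson intervals of the tags in control and Ngn3-OE overlapped at all 108 shared peaks, so that 0 of 108 were higher and 0 of 108 lower in Ngn3-OE by this measure (upper limit 3.44%), where 0.883% of all shared peaks were higher and 0.936% lower. The median rank shift, Ngn3-OE minus control, was −0.68 percentiles at the 10 genes and 0.96 over all shared peaks, and 56 of the 108 peaks, or 51.9%, moved down, against 41.2% of all shared peaks. Ranked by tags instead, the median shift at the 10 genes changed sign, to 0.14.

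**Figure D2:**
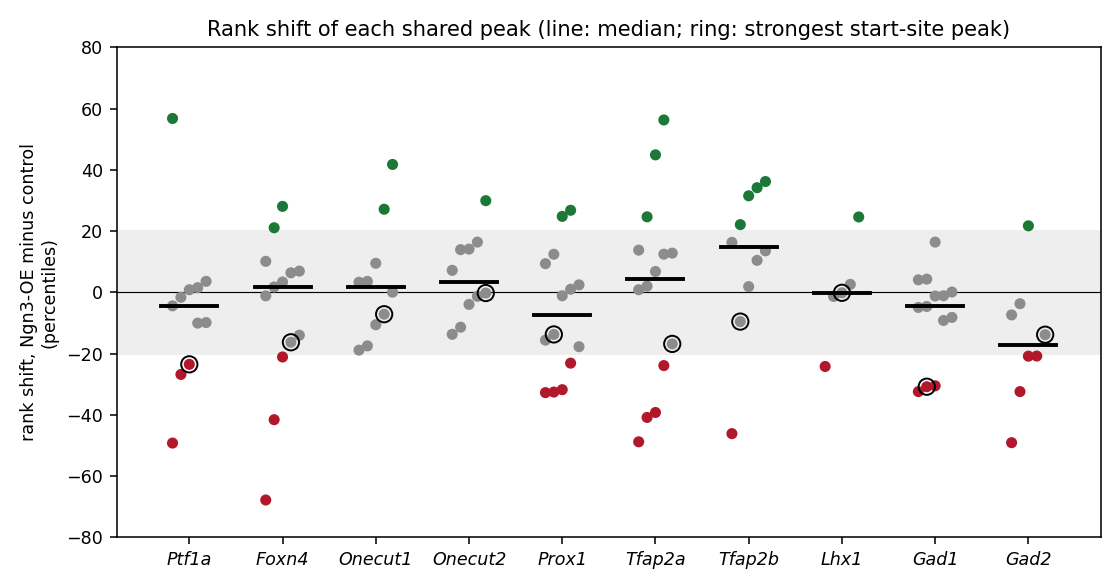
Rank shift (vertical axis, percentiles, Ngn3-OE minus control) of each of the 108 shared peaks by gene, with the median as a line, the strongest start-site peak of each gene ringed, and shifts of 20 or more coloured red for falls and green for rises. Falls were seen at 8 of the 10 genes and at neither Onecut1 nor Onecut2, and all 10 ringed peaks lie below 0.

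The start sites of the genes themselves gave the most uniform pattern. The strongest control peak within 1 kb of an own start site had a lower rank in Ngn3-OE at all 10 genes, with a median shift of −13.8 percentiles, and had fewer tags at 9 of them. By the same choice, 50.1% of 13734 protein-coding genes with such a shared peak had a lower rank in Ngn3-OE and 44.0% had fewer tags. Among the 2526 genes with a control rank of 50 to 80, which holds 8 of the 10 peaks, 47.4% had a lower rank. The start-site peaks of 2 genes, Ptf1a and Gad1, fell by 20 percentiles or more, against 2.88% of all genes and 9.70% of those with a control rank of 50 to 80, where both peaks lay. The Gad1 peak lay 8.10 kb into the gene, 874 bp from a start inside it. An Ngn3-OE-only peak of 13 tags lay 60 bp from that same start.

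This pattern depended in part on the list from which the peak was chosen. When the strongest start-site peak was taken from the Ngn3-OE list instead, a choice made after seeing the data, 7 of 9 genes had a lower rank in Ngn3-OE, against 45.9% of all genes. The exceptions were Tfap2a and Lhx1, and at Gad1 the strongest Ngn3-OE peak had no control counterpart. None of the 10 pairs of tag intervals was apart.

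**Figure D3:**
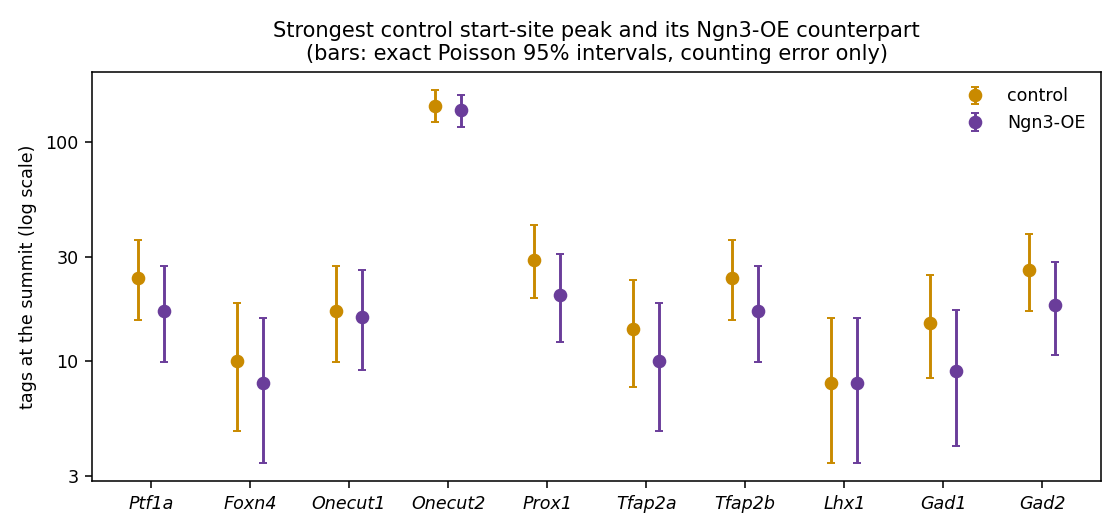
Tags at the summit (vertical axis, log scale) of the strongest control start-site peak of each gene and of its Ngn3-OE counterpart, with exact Poisson 95% intervals. Onecut2 stood far above the other genes at 146 and 139 tags, Lhx1 had 8 tags in both libraries, and the intervals of the libraries overlapped at every gene.

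Ptf1a (chr2:19445663-19447501, plus strand) had 14 control and 15 Ngn3-OE peaks. Its start-site peak had 24 tags in control and 17 in Ngn3-OE and fell by 23.5 percentiles. The strongest peaks of the locus by −log10 q lay just past the short gene, 2.53 and 2.91 kb from the start and nearest to the start of the antisense transcript Ptf1aos, with 59 tags in control and 71 in Ngn3-OE at the first and 42 tags in both at the second. These flanking peaks therefore did not share the lower value of the start site. The strongest distal peak, 27.0 kb from the start, had 20 and 25 tags. Upstream, a peak at 31.0 kb went from 14 to 5 tags and fell by 49.2 percentiles, and all 5 shared peaks from 22.4 to 31.0 kb upstream had fewer tags in Ngn3-OE. The largest rise was at 9.09 kb, from 4 to 13 tags, 2.92 kb from a start of the gene 1810010K12Rik. The strongest control-only peak by −log10 q had 11 tags, 4.68 kb past the start, and the strongest Ngn3-OE-only peak had 6 tags, 43.8 kb past it.

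Foxn4 (chr5:114254164-114273807, minus strand) had 17 control and 15 Ngn3-OE peaks, and its strongest was the intron peak with the E-box shown above. That peak had 57 tags in control and 74 in Ngn3-OE and stood at rank 95.4 in control and 97.1 in Ngn3-OE, so that its place near the top of both lists hardly moved. The start-site peak was weak, with 10 and 8 tags. Upstream, neighbouring peaks went in opposite directions: the peak at 8.75 kb had 28 tags in control and 43 in Ngn3-OE, that at 6.15 kb 15 and 26, and that at 11.3 kb 21 and 6. The last fell by 67.8 percentiles, from rank 75.8 to 7.97, the largest fall at any of the 10 genes. The largest rise at Foxn4, 18.5 kb upstream in an intron of the neighbouring gene Myo1h, was from 7 to 14 tags. The 4 control-only peaks had 4 to 8 tags, and both Ngn3-OE-only peaks had 3.

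**Figure D4:**
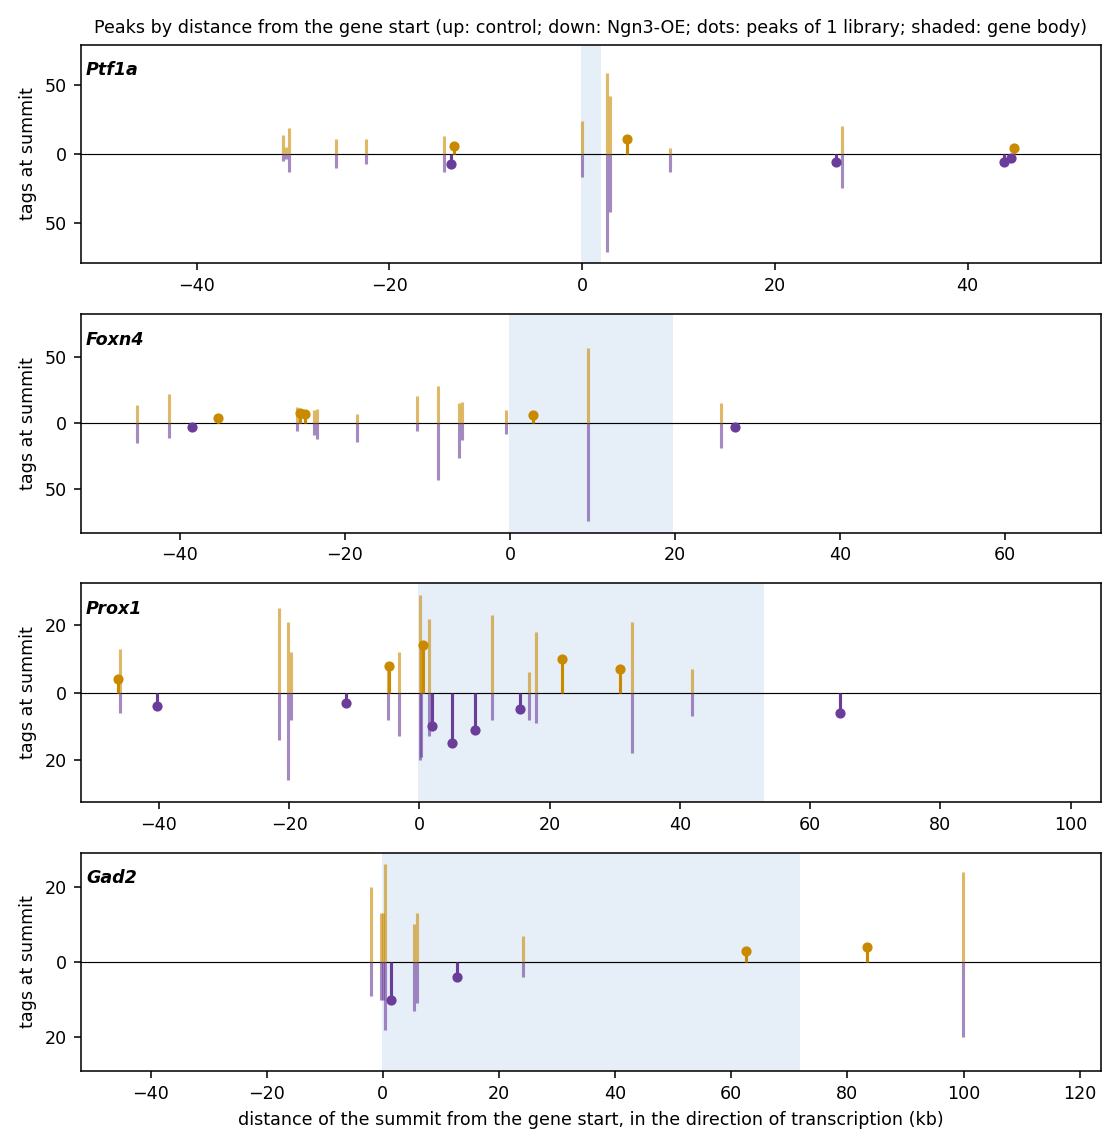
Tags at the summit of each peak (vertical axis, control upwards and Ngn3-OE downwards) by distance in kb from the gene start in the direction of transcription at Ptf1a, Foxn4, Prox1 and Gad2, with the gene body shaded and peaks of 1 library dotted. The tallest peaks at Ptf1a and Foxn4, of 59 and 57 tags in control, were as tall or taller in Ngn3-OE, whereas the 4 peaks around the Gad2 start were all shorter.

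Among the genes of horizontal cell development, neither Onecut gene had a fall of 20 percentiles or more, and 3 of 13 control peaks at Onecut1 and 1 of 11 at Onecut2 had no Ngn3-OE counterpart. Onecut1 (chr9:74861921-74891781, plus strand) had 13 peaks in each library and a start-site peak of 17 tags in control and 16 in Ngn3-OE. Its strongest distal peak, in an intron 6.12 kb from the start, had 17 and 20 tags, and an Ngn3-OE-only peak of 16 tags lay 4.55 kb into the gene. Its largest rise, from 6 to 14 tags, was 14.1 kb upstream at the start of the gene Gm16551, beside its strongest control-only peak by −log10 q, of 6 tags. The largest fall, of 18.9 percentiles, was from 6 to 4 tags at 63.6 kb.

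Onecut2 (chr18:64340020-64400987, plus strand) held the strongest peaks of all 10 genes. Its start-site peak had 146 tags in control and 139 in Ngn3-OE, at ranks 99.6 and 99.4, and a peak 2.84 kb into the gene had 108 and 98 tags. A pair of intron peaks, 5.71 and 6.07 kb into the gene, had 30 and 28 tags in control and 51 and 36 in Ngn3-OE. At 98.1 and 98.4 kb past the start, 2 neighbouring control peaks of 10 and 15 tags overlapped a single Ngn3-OE peak of 27 tags, and the first of them gave the largest rise at this gene, of 29.9 percentiles. The strongest distal peak by −log10 q, in an exon 60.7 kb into the gene, had 15 and 13 tags. The largest fall was 13.7 percentiles, at an intron peak of 21 and 19 tags. The 1 control-only peak had 3 tags and the strongest of the 3 Ngn3-OE-only peaks had 7.

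Prox1 (chr1:190118035-190170714, minus strand), a homeobox factor needed for horizontal cells and present in other retinal neurons, had the most peaks, 19 in control and 21 in Ngn3-OE, and the most one-library peaks, 5 and 7. Its start-site peak had 29 tags in control and 20 in Ngn3-OE, while a peak 0.185 kb into the gene had 14 and 19, so that neighbouring peaks at the start went in opposite directions. Falls were seen at 4 peaks: the strongest distal peak by −log10 q, in an intron 11.1 kb into the gene, went from 23 to 8 tags, and the others from 22 to 13, 18 to 9 and 13 to 6. The last of these, 46.0 kb upstream, fell by 32.8 percentiles, the most at this gene. The Ngn3-OE-only peak with the highest −log10 q of the 30, at 10.6, had 11 tags and lay 8.46 kb into Prox1. The control-only peak with the highest −log10 q had 10 tags and lay 21.9 kb into the gene.

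Lhx1 (chr11:84518284-84525535, minus strand), a LIM homeobox factor of horizontal cells, had the fewest peaks, 7 in control and 10 in Ngn3-OE, of which 5 were shared. The shared start-site peak had 8 tags in both libraries, and the distal peak with the motifs shown above had 28 and 34 tags. A peak 2.66 kb into the gene, near a further start site, rose from 7 to 11 tags or 24.6 percentiles, and the largest fall was from 9 to 6 tags at the start of the neighbouring gene Aatf. The 5 Ngn3-OE-only peaks had 5 to 7 tags, 4 of them 28.7 to 48.3 kb upstream, and the 2 control-only peaks, of 5 and 6 tags, lay in the same stretch.

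The AP-2 genes showed shifts in both directions. Tfap2a (chr13:40715302-40738376, minus strand) had 14 control peaks, all of them shared, and 16 Ngn3-OE peaks. Of its start-site peaks, 1 went from 14 to 10 tags, another from 13 to 17, and that at the outermost start from 7 to 9. In all, 4 peaks fell and 3 rose by 20 percentiles or more. From 33.1 to 34.8 kb past the Tfap2a start, around the start of the gene Gm9979, peaks moved in opposite directions: 1 rose from 7 to 14 tags, and 3 fell from 8, 11 and 10 tags to 5 tags each. The largest rise, 56.3 percentiles, was at the upstream E-box region shown above, with 3 tags in control and 9 in Ngn3-OE. The strongest distal peak, 29.2 kb past the start, had 18 and 20 tags, and the 1 Ngn3-OE-only peak, 2.67 kb upstream, had 6.

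Tfap2b (chr1:19208914-19238576, plus strand) had more control than Ngn3-OE peaks, 15 against 11, and the highest median shift of the 10 genes, 14.9 percentiles. Its start-site peak had 24 tags in control and 17 in Ngn3-OE. The strongest distal peak, in an intron 8.56 kb into the gene, went from 20 to 7 tags and fell by 46.2 percentiles. A further 3 intron peaks, the first 9.74 kb into the gene, went from 6 to 9, 4 to 7 and 6 to 10 tags and rose by 31.5, 36.2 and 34.2 percentiles. Another rise, of 22.1 percentiles, was from 9 to 11 tags at 1.00 kb from the start. The 5 control-only peaks had 4 to 6 tags, and the 1 Ngn3-OE-only peak, of 3 tags, lay beside the strongest of them in an intron.

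The GABA-synthesis genes had peaks of moderate strength, and more of their shared peaks went down than up. At Gad1 (chr2:70553072-70602014, plus strand), 9 of 13 shared peaks had a lower rank in Ngn3-OE, 3 fell by 20 percentiles or more and none rose by as much. A start-site peak 8.10 kb into the gene, 874 bp from the nearest Gad1 start, went from 15 to 9 tags and fell by 30.8 percentiles. An Ngn3-OE-only peak of 13 tags lay 60 bp from that start. The strongest peak of Gad1, in an intron 19.4 kb into the gene, had 43 tags in control and 34 in Ngn3-OE. Its largest fall was from 7 to 4 tags, 92.6 kb past the start, and its largest rise from 6 to 8 tags, of 16.4 percentiles.

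Gad2 (chr2:22622205-22693874, plus strand) had the lowest median shift of the 10 genes, −17.3 percentiles, and 7 of its 8 shared peaks had a lower rank in Ngn3-OE. The 4 peaks around its start all had fewer tags. That at 2.02 kb upstream, shown above with its SOX-type match, went from 20 to 9 tags and fell by 49.1 percentiles, the next pair went from 13 to 10 tags each, and the strongest, just past the start, from 26 to 18. The intervals of the first, 12.2 to 30.9 tags in control and 4.12 to 17.1 in Ngn3-OE, overlapped. A weak Ngn3-OE-only peak of 10 tags lay 1.41 kb past the start. The strongest distal peak, 99.8 kb from the start, had 24 and 20 tags, and 1 intron peak rose, from 10 to 13 tags.

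Promoters, noncoding exons and peaks with several summits were more frequent at the 10 genes than over all regions, with intervals that excluded the background. Of the 163 regions, 36.2% (29.2 to 43.8) were at promoters, against 29.1% of all regions, 3.68% (1.70 to 7.80) were in noncoding exons, against 1.51%, and 11.0% (7.10 to 16.8) had several summits, against 6.32%. Introns held 36.2% (29.2 to 43.8) against 39.3% and intergenic DNA 22.7% (16.9 to 29.7) against 28.9%, and these intervals included the background. Of the 59 promoter regions, 27 were nearest to a start site of the gene itself and 32 to that of another gene, so that a promoter peak in these windows often belonged to a neighbour. Median GC content was 52.2%, against 51.2%.

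Motif matches were counted on both strands within 100 bp of the summit, and a match describes letters and not a bound site. The E-box core CATCTG, which is contained in the 10-letter E-box of the study, was present in 27 of the 163 regions, or 16.6% (11.6 to 23.0), against 22.2% of all regions, and the longer E-box in 4, or 2.45% (0.958 to 6.14), against 3.87%. The SOX-type motif CCATTGT or CCTTTGT was present in 9.82% (6.13 to 15.4) against 8.32%, and the AP-2 motif GCCNNNGGC in 8.59% (5.19 to 13.9) against 10.7%. The Onecut motif ATTGAT or ATCGAT was present in 5.52% against 5.58%, the OTX/CRX-type motif GGATTA in 11.0% (7.10 to 16.8) against 15.3%, and the RBPJ-type motif TGGGAA in 19.6% against 17.9%. All these intervals included the value over all regions in this window, but within 250 bp of the summit the E-box core was present in 28.8% (22.4 to 36.2) against 38.0%, below the background. Among the 23 peaks that fell, 4 held a SOX-type match and none the longer E-box, and among the 17 that rose 1 held each. Over all shared peaks the SOX-type motif was present in 15.0% of those that fell and 6.47% of those that rose, and the longer E-box in 2.32% and 5.26%. The OTX/CRX-type motif (1 fell, 3 rose) also had the direction seen over all shared peaks (8.6% and 21.9%). The shares had the opposite direction for the E-box core (4 and 2, over all 19.7% and 25.6%) and AP-2 (4 and 1, 9.3% and 10.4%). This held too for Onecut (1 and 2, 6.0% and 5.5%) and RBPJ-type (3 and 4, 19.4% and 17.0%). These counts are small.

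**Figure D5:**
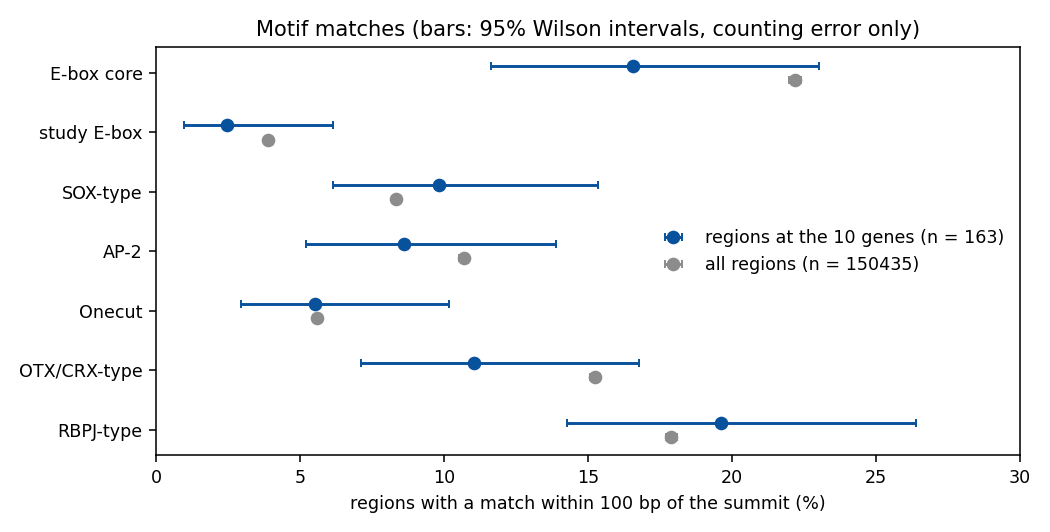
Share of regions with a match to each motif within 100 bp of the summit (horizontal axis, percent) for the 163 regions at the 10 genes and for all 150435 regions, with 95% Wilson intervals. The interval of the 10 genes spans the value of all regions for each of the 7 motifs.

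A further 28 genes of amacrine and horizontal cells or of their regulators, handled the same way, did not show the larger share of falls. Of their 383 shared peaks, 45 fell by 20 percentiles or more, or 11.7%, and 59 rose, or 15.4%, both near the values for all shared peaks. Their strongest control start-site peak had a lower rank in Ngn3-OE at 14 of 25 genes. The only one that fell by 20 percentiles or more was that of Pax6, a factor of progenitors and amacrine cells, from 39 to 19 tags, and none rose by as much. This too depended on the list: the strongest Pax6 start-site peak in Ngn3-OE was another, of 29 tags. With the peak chosen from the Ngn3-OE list, 12 of 25 genes had a lower rank, 0 fell and 1 rose by 20 percentiles or more. Over the 28 genes, 96 of 479 control peaks were control-only, or 20.0%, against 21.7% of all control peaks. Of their 509 Ngn3-OE peaks, 127 were Ngn3-OE-only, or 24.95%, against 26.6%, so that both shares were near the background. Ngn3-OE-only peaks outnumbered control-only peaks most at Dner, Ebf1 and Meis2, by 9, 9 and 7, and the reverse held at Rorb, Pax6 and Ebf3, with 14, 11 and 8 control-only and 7, 5 and 5 Ngn3-OE-only peaks. Whether the 10 genes and these 28 differ beyond the variation between preparations was not tested.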

How the data were processed

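ATAC-seq of 1 control and 1 Ngn3-OE library was analysed from the deposited peak lists. Per the methods of the study, the authors trimmed reads with Trimmomatic, aligned them to mm10 with Bowtie2, removed duplicates (Picard 2.20.4), mitochondrial reads (SAMtools 1.6) and blacklisted regions (bedtools 2.30.0), kept fragments of up to 120 bp, moved read ends by 4 and 5 bp for the Tn5 cut (deepTools 3.1.3) and called peaks per library in MACS2 2.2.4 at a q-value limit of 0.05. The lists therefore describe nucleosome-free DNA. For each peak the authors deposited an integer score, a fold enrichment (a ratio at the summit over local background) and 2 significance values as −log10, for p and for q (the adjusted p-value). The score was not used.

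Lines with the same interval were merged, the 21 assembled chromosomes were kept, and summits were placed on GENCODE M21. Whole-number tags were solved from fold enrichment and −log10 p and tested on simulated data. Peaks overlapping by 1 bp were shared; the counterpart was the overlapping peak with the highest −log10 q. Sequencing depth is not given by the lists; tags carry exact Poisson and shares Wilson 95% intervals. Sequence was read from the RefSeq file of GRCm38, the build of mm10. Python 3.11.15, NumPy 2.4.6, pandas 2.3.3, SciPy 1.17.1 and matplotlib 3.10.9 were used.

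The 10 genes, the lists of 28 further genes and of markers, and the call at 20 percentiles were chosen with earlier results of these data known. For each of the 10 genes the text names its peak numbers, strongest start-site, distal and one-library peaks and largest rank rise and fall; of the 28, the 3 with the largest excess of one-library peaks in each direction and those whose start-site peak moved by 20 percentiles or more. Other peaks named, such as the neighbours of a named peak and the regions with the longer E-box, were chosen after their values were seen. Alternatives were other flanks, overlaps, q thresholds, ranking values, motif windows and counting of lines.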

Additional observations from a re-analysis of the deposited data

How the results depend on the processing

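No paired analysis was possible because each group had 1 library. For the same reason no replicate was left out.

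The share of falls among the shared peaks was recomputed for other ranking values, q thresholds, flanks, calls and the Ngn3-OE list. It was not recomputed for other overlaps or counting of lines. The share stayed above that of all shared peaks under each alternative run for it, but its interval included the background at 10 kb flanks (17.5%, 10.0 to 28.6, against 10.5%) and with a −log10 q minimum of 5 in both lists. With 10 kb flanks the numbers were 76 control and 79 Ngn3-OE peaks, 13 control-only, 15 Ngn3-OE-only, 11 rises and 11 falls, and with 100 kb flanks there were 49 Ngn3-OE-only peaks. With the −log10 q minimum of 5 in both lists, 87 control and 88 Ngn3-OE peaks remained, with 11 falls and 14 rises (21.2% against 15.4%), so that rises outnumbered falls. With that limit on the queried list alone, 96.6% of control and 88.6% of Ngn3-OE peaks were shared. When an overlap of 50% of both peaks was asked for, 70.7% and 66.7% were shared, with 39 control-only and 47 Ngn3-OE-only peaks. A call at 30 percentiles gave 7 rises and 15 falls. Ranking by tags gave 11 rises and turned the median shift to 0.14 and that of the Lhx1 start-site peak to 0.51. Choosing the start-site peak from the Ngn3-OE list gave shifts of 13.8 at Tfap2a and 24.6 at Lhx1. Motif windows of 50 and 250 bp on each side gave shares of 11.0% and 28.8% for the E-box core (all regions 14.0% and 38.0%), 3.68% and 20.9% for AP-2 (5.98% and 19.75%) and 2.45% and 19.6% for Onecut (2.65% and 15.4%), and 50 bp gave 4.29% for SOX (4.49%). Only the E-box core at 250 bp had an interval (22.4 to 36.2) that excluded the value of all regions. The limit on the queried list alone, the call at 30 percentiles and the choice from the Ngn3-OE list were added after seeing the data. The cause of these shifts was not tested. Low tag numbers limit every single-peak comparison.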
